A study of Mus musculus with 12 samples.

Results

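The 43 genes described here encode the machinery that copies DNA in S phase. They were chosen by gene symbol from a table of 53599 mouse genes, all 43 are in that table, and all 43 were among the 14798 genes with enough reads to test. By role they comprise 11 genes of origin licensing, 6 of helicase activation, 5 of the sliding clamp and its loader, 10 of the polymerases and of strand processing, 4 of nucleotide supply, and 7 of S phase chromatin and its control. Their RNA was measured by sequencing in 12 cultures of mouse liver cells, 3 in each of 4 groups, with the question of how cells of either origin differ between flat and spheroid culture.

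The cells named hepCLiP came from hepatocytes and those named bilCLiP from biliary epithelial cells. In the 2D groups either kind grew on collagen in small hepatocyte medium (SHM) containing 10% fetal bovine serum and the compounds Y-27632, A83-01 and CHIR99021. The 3D groups were spheroids grown from 2D cells, first for 3 days in microwells with the same compounds but no serum, then for 6 to 8 days in suspension with oncostatin M at 10 ng/ml. Culture geometry, serum, oncostatin M and time in culture therefore changed together between 2D and 3D and cannot be told apart. All bilCLiP cultures and hepCLiP replicate 2 carry a RosaYFP allele, and hepCLiP replicates 1 and 3 carry RosaConfetti, both fluorescent reporters at the Rosa26 locus. No age is given. Apart from the genotypes, which set hepCLiP replicate 2 apart from replicates 1 and 3, nothing in the labels ties replicates to different animals or derivations. The p-values below measure the spread between these cultures, which in hepCLiP includes the difference of genotype. Part of the spread goes with the replicate number, since same-numbered 2D and 3D libraries deviated together (correlation across genes 0.429 to 0.523 in bilCLiP). What the number marks is not given, and the spread otherwise may be technical.

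Replication begins in G1, when the origin recognition complex with Cdc6 and Cdt1 loads inactive Mcm2-7 helicase rings on DNA. At S phase entry Cdc45, the GINS complex and Mcm10 turn these rings into active helicases, and polymerases, clamp, ligase and nucleotide-making enzymes follow. Transcription of most of these genes is driven by E2F factors, which are held in check by retinoblastoma-family proteins in resting cells. Hepatocytes of the adult liver are mostly quiescent, and both hepatocytes and biliary cells re-enter the cycle after injury.

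Groups were taken from the sample titles. A treatment tag contradicts the title for hepCLiP 2D replicate 3, tagged 3D, and for the 3 bilCLiP 3D samples, tagged 2D. For hepCLiP 2D replicate 3, the correlation of log2 levels across genes was 0.944 to 0.953 against its 2D replicates and 0.814 to 0.852 against hepCLiP 3D. For the 3 bilCLiP 3D libraries it was 0.923 to 0.953 against hepCLiP 3D and 0.751 to 0.860 against bilCLiP 2D. Libraries held 16142365 to 21253382 counted reads. The 6 hepatocyte markers (Alb, Ttr, Apoa1, Hnf4a, Cebpa, Cps1) were detected in every group, with a summed level, in counts scaled to the effective library size (CPM), of 341 to 1607 in hepCLiP 2D and 180 to 1043 in bilCLiP 2D. In 3D the sum was 40750 to 51470 CPM in hepCLiP and 17390 to 43230 CPM in bilCLiP. All 6 biliary markers averaged above 1 CPM in each group, with a summed level of 3186 to 10410 CPM in the 2D libraries and 11320 to 33330 CPM in 3D, most of it from Spp1. Spp1 rose in 3D by 2.35 in hepCLiP and 1.99 in bilCLiP on the log2 scale (edgeR adjusted p = 0.00458 and 0.0112), and the cytokeratin gene Krt19 fell by 6.62 and fell by 7.02, respectively (edgeR adjusted p = 0.00129 and 0.00126). Krt7 fell by 3.18 in hepCLiP and had a log2 fold change of -2.01 that did not pass in bilCLiP, and Sox9 and Epcam passed in neither. The mean log2(CPM + 1) of the 6 was lower in 3D, at 5.79 against 7.30 in hepCLiP and 6.41 against 7.59 in bilCLiP. Endothelial markers (6) summed to at most 3.70 CPM in any library, with Lyve1 at 0 in every group except bilCLiP 3D. Leukocyte and macrophage markers (6) summed to at most 19.5 CPM, and Cd3e was at 0 in every group. The 7 fibroblast and stellate markers summed to 1.23 to 8.79 CPM in hepCLiP 2D, 3.49 to 4.78 in bilCLiP 2D, 24.6 to 39.7 in bilCLiP 3D and 6.32 to 291 in hepCLiP 3D, where Dcn alone reached 281.5 CPM in replicate 1. Of the 6 mesothelial markers, Krt19 (also on the biliary list) and Msln averaged above 1 CPM in each group. That list summed to 830 to 2089 CPM in hepCLiP 2D and 1233 to 1580 in bilCLiP 2D, and to 6.74 to 38.8 and 9.22 to 40.0 in the corresponding 3D groups. Upk3b and Lrrn4 were at 0 in both 3D groups. In each origin all 6 hepatocyte markers rose, both mesothelial markers that could be tested fell, and 1 of 3 tested fibroblast markers rose, Dcn in hepCLiP and Reln in bilCLiP. The 1 endothelial marker that could be tested fell by 4.94 on the log2 scale in bilCLiP (edgeR adjusted p = 0.00311). In hepCLiP it had a log2 fold change of -2.46 that did not pass (edgeR adjusted p = 0.0694). The hepatocyte, biliary, mesothelial, fibroblast and endothelial lists thus held genes that moved with culture, and their part in the results below was not tested.

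In 3D culture, RNA of the replication genes was lower than in 2D in both origins. Of the 43 genes, 37 fell in hepCLiP and 32 fell in bilCLiP at an adjusted p under 0.05, and 0 rose in either. Adjusted p here and below is from edgeR's quasi-likelihood test on counts with Benjamini-Hochberg adjustment over the 14798 genes tested. Unless a block is named, the fit did not pair libraries by replicate number. Among all genes tested, 17.9% were called lower, 16.9% higher and 34.7% in either direction in hepCLiP, and 14.5% lower, 15.8% higher and 30.3% in either direction in bilCLiP. The 32 genes that fell in bilCLiP also fell in hepCLiP, beside 12% of all genes tested that fell in both. The fall was at least 2-fold for 35 genes in hepCLiP, against 10.3% of all genes tested, and for 27 in bilCLiP, against 8.57%. The median log2 fold change of the 43 was -1.74 in hepCLiP and -1.15 in bilCLiP, while that of all genes tested was -0.06 and -0.0024. Every 3D library was below every 2D library for 39 genes in hepCLiP and 38 in bilCLiP, against 24.5% of all genes tested in each origin. All 43 fold changes were negative in each origin, as were 53.2% of all genes tested in hepCLiP and 50.1% in bilCLiP. At an unadjusted p under 0.05 there were 41 of the 43 in hepCLiP, beside 45.3% of all genes tested, and 39 in bilCLiP, beside 41.4%. In bulk RNA, fewer cells in S phase and less of these RNAs per cell cannot be told apart.

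The 5 genes that passed in hepCLiP and not in bilCLiP were Gmnn, Rfc4, Pola1, Prim2 and Pole2, a pattern of 5.85% of all genes tested. None of the 43 fell in bilCLiP alone, a pattern of 2.52% of all genes tested. The 6 that passed in neither origin, like 59.8% of all genes tested, were Gins3, Gins4, Rfc3, Fen1, Rpa2 and E2f1. A call in one origin and not in the other does not show that the effect differs; the difference itself is tested further on. The bilCLiP count rested in part on 1 library: without bilCLiP 3D replicate 2, the number that fell was 17, of which 16 were among the 32. Calls over all genes tested varied too, in either direction, at 3115 to 4554 in bilCLiP without 1 library, beside 4485 in the full fit. Without bilCLiP 2D replicate 1, 22 of the 32 kept their call. In hepCLiP, 35 of the 37 genes kept their call whichever 1 of the 12 libraries was left out, the exceptions being Prim2 and Pole2. In bilCLiP, 16 of the 32 did so: Mcm2, Mcm4, Mcm7, Orc1, Cdc45, Gins1, Pcna, Rfc5, Pold1, Pole, Rrm2, Tyms, Uhrf1, Chaf1a, Chaf1b and Hells. Among RosaYFP libraries alone, hepCLiP has 1 library per culture, so only the size of the change is given. The median of the 43 in hepCLiP was then -2.23, and all 43 values were negative. The scaling factors themselves (TMM, the trimmed mean of M values) ran from 1.17 to 1.26 in 2D and from 0.764 to 0.941 in 3D. Scaled by library totals alone, the median of all genes tested shifted to -0.63 in hepCLiP and -0.47 in bilCLiP, the median of the 43 was -2.31 and -1.62, and all 43 were called lower in each origin.

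**Figure D1:**
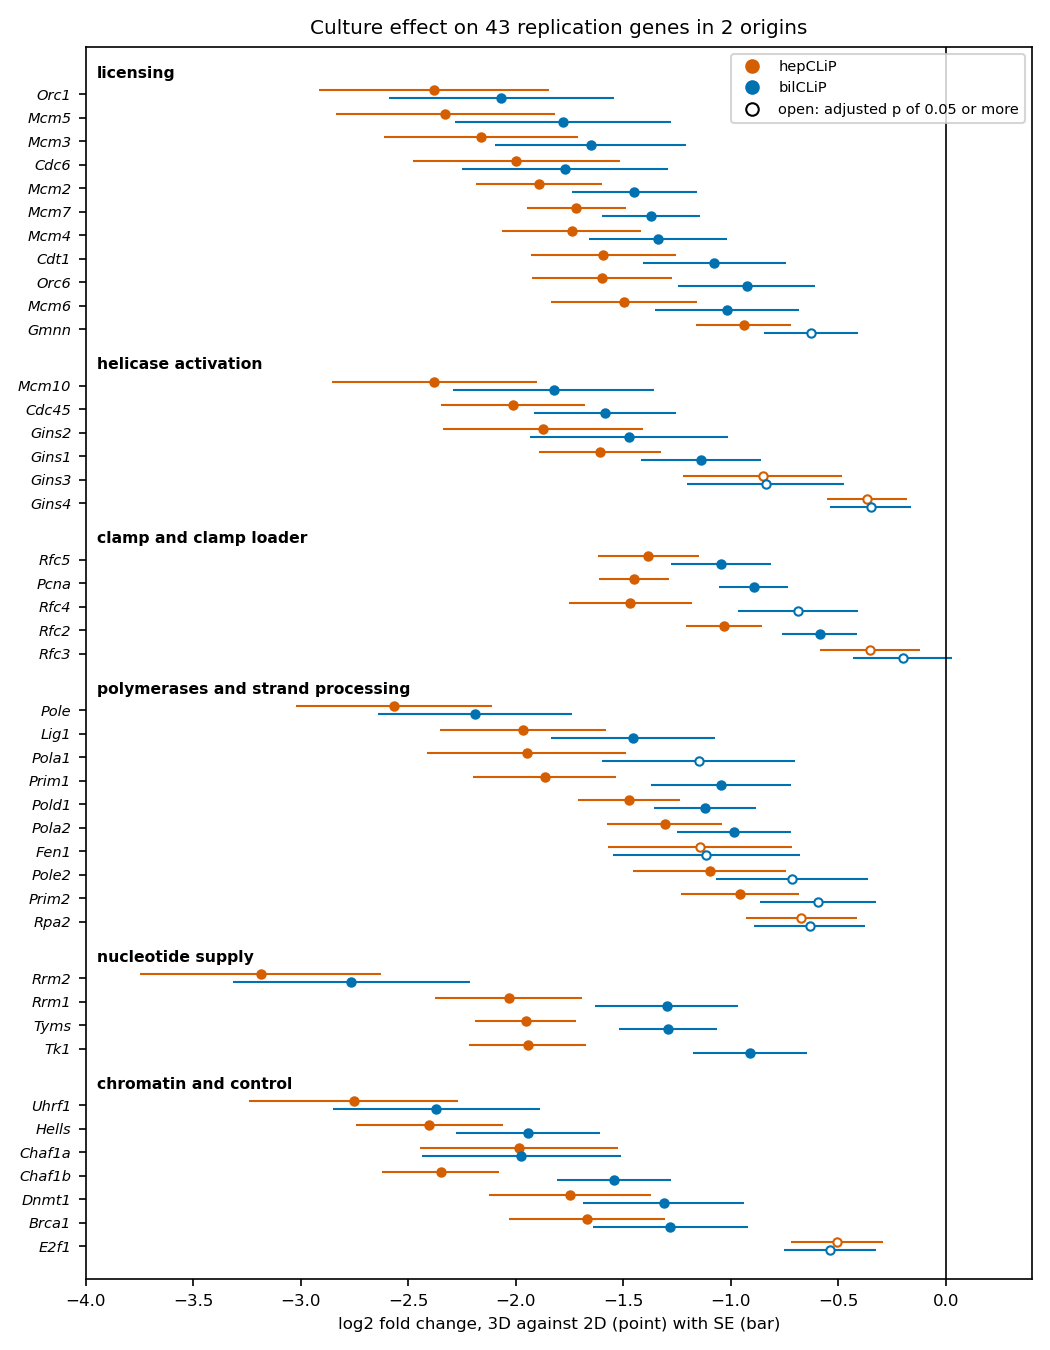
Log2 fold change of 3D against 2D (x axis) for the 43 replication genes (y axis, grouped by role) in hepCLiP (orange) and bilCLiP (blue), with bars of 1 SE from the fit over 12 libraries; open points have an adjusted p of 0.05 or more. All 86 points lie left of 0, from Rrm2 at -3.19 in hepCLiP to Rfc3 at -0.20 in bilCLiP, and the hepCLiP point lies left of the bilCLiP point for 42 genes.

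In the promoters of these genes, letters that match E2F sites were more common than in promoters at large. RefSeq promoters of the GRCm38.p6 build, from 250 bases before to 50 after the annotated start, were at hand for 35 of the 43 genes. Both strands were searched for TTTCGCGC, for TTTGGCGC, for TTTCCCGC and for TTTGCCGC. At least 1 of these occurs in 16 of the 35 (45.7%) and in 2.6% of the 27025 genes with a promoter, or 3.29% of the protein-coding ones. By role the count is 7 of 9 licensing genes, 4 of 8 polymerase and strand processing genes and 0 of 4 nucleotide supply genes. A match is a description of the letters only. The stretches below show 60 bases each, read on the strand of the gene, that lie before the start and touch no annotated exon. They are shown, with the E2F match in capitals, because they are the stretches of this kind in genes that fell.
Mcm5: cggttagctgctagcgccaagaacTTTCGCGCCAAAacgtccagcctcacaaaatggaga
Mcm6 upstream: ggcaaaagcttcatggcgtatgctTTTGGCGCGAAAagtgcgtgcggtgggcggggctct
Mcm6 downstream: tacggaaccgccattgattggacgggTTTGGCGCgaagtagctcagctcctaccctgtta
Cdc6: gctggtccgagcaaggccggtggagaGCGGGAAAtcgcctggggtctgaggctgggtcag
Pola1: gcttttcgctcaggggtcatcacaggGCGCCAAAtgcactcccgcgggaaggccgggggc
Uhrf1: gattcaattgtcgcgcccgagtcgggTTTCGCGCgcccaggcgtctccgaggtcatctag

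Mcm5 and the upstream site of Mcm6 carry the 8 letters on both strands at once, so that the capitals run over 12 bases. The Mcm5 stretch is chr8:75109332-75109391 on the plus strand, with the match 153 bases before the start. The 2 stretches of Mcm6 are chr1:128359780-128359839 and chr1:128359719-128359778 on the minus strand, with matches 110 and 47 bases before the start. The Cdc6 stretch is chr11:98907987-98908046 on the plus strand, the Pola1 stretch is chrX:93632260-93632319 on the minus strand, and the Uhrf1 stretch is chr17:56304102-56304161 on the plus strand, with matches 138, 138 and 185 bases before the start. Rrm2, with the largest fall, has none of the E2F letters in its window but holds CCAAT, the box bound by NF-Y, shown here in capitals.
Rrm2: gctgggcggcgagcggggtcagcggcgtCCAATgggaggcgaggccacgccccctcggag

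The Rrm2 stretch is chr12:24708176-24708235 on the plus strand, with the box 50 bases before the start. CCAAT on either strand occurs in 60% of the 35 promoters and in 41.1% of all promoters. The cell cycle homology region letters TTTGAA or TTCGAA, found in many mitotic genes, occur in 20% of the 35 and in 21.7% of all. The median log2 fold change was -1.85 for the 16 with a match and -1.87 for the 19 without in hepCLiP, and -1.34 and -1.11 in bilCLiP. Among the 16 are Uhrf1, which fell by 2.75, and Rfc3, at -0.35, in hepCLiP.

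Among the licensing genes, 11 of 11 fell in hepCLiP (median log2 fold change -1.74) and 10 of 11 in bilCLiP (median -1.37). Mcm2, a subunit of the helicase ring, stood at 98.1, 111 and 113 CPM in the hepCLiP 2D libraries and at 40.9, 21.4 and 24.4 CPM in 3D. In bilCLiP its values were 78.6, 93.7 and 61.05 CPM in 2D and 35.2, 18.2 and 32.02 CPM in 3D. All 3D libraries were below all 2D libraries, and the libraries numbered 2 were the lowest of either 3D group. Mcm2 fell by 1.89 ± 0.30 (SE, n = 3 against 3) on the log2 scale in hepCLiP (edgeR adjusted p = 0.000903) and by 1.45 ± 0.29 in bilCLiP (edgeR adjusted p = 0.00411). Mcm7, another subunit of the ring, went from 93.9, 124 and 160.0 to 46.4, 31.4 and 37.1 CPM in hepCLiP and from 91.5, 97.9 and 76.5 to 38.8, 26.4 and 37.5 CPM in bilCLiP, with no overlap between cultures. Its fall was 3.29-fold in hepCLiP and 2.59-fold in bilCLiP (edgeR adjusted p = 0.000407 and 0.00146). Exons of other genes, on either strand, overlap 12.6% of the Mcm7 exon bases. Of the ring, Mcm5 fell most, 5.02-fold in hepCLiP and 3.43-fold in bilCLiP, and Mcm6 fell least, 2.82-fold and 2.02-fold. With the replicate number as a block, the Mcm6 fall in bilCLiP was not called (edgeR adjusted p = 0.0612 against 0.041), nor was that of Cdt1 below (edgeR adjusted p = 0.0792). Mcm3 and Mcm4 lay between them in both origins.

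The largest fall in this role was that of Orc1, a subunit of the origin recognition complex. Its RNA was scarce, at 5.37, 6.18 and 8.24 CPM in hepCLiP 2D and 1.76, 0.639 and 1.39 CPM in hepCLiP 3D. In bilCLiP it was at 9.13, 5.01 and 5.28 CPM in 2D and 2.44, 0.574 and 1.62 CPM in 3D. The cultures did not overlap, and replicate 2 of each 3D group held less than 1 CPM. Exons of Gm12743 on the other strand overlap 10.8% of the Orc1 exon bases. Orc1 was 5.21-fold lower in hepCLiP 3D (edgeR adjusted p = 0.00608) and 4.19-fold lower in bilCLiP 3D (edgeR adjusted p = 0.0128). Orc6, a subunit of the same complex, fell less, by 1.60 ± 0.33 and 0.93 ± 0.32 on the log2 scale.

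Cdc6, an ATPase that loads the ring, stood at 12.95, 13.2 and 19.6 CPM in hepCLiP 2D and at 6.89, 2.13 and 2.43 CPM in 3D, and at 11.3, 9.91 and 8.98 and 4.28, 1.49 and 3.07 CPM in bilCLiP. Replicate 1 was the highest 3D library in both origins and stayed below every 2D library. The fall was 2.00 ± 0.48 on the log2 scale in hepCLiP (edgeR adjusted p = 0.00869) and 1.77 ± 0.48 in bilCLiP (edgeR adjusted p = 0.0177). Cdt1, the loading factor that geminin blocks, went from 22.4, 35.4 and 35.3 to 12.8, 8.16 and 9.87 CPM in hepCLiP and from 15.2, 31.7 and 16.6 to 12.8, 7.18 and 10.1 CPM in bilCLiP. In bilCLiP 2D, replicate 2 lay within the hepCLiP 2D range, and replicates 1 and 3 were just above the highest 3D library. Cdt1 fell by 1.59 on the log2 scale in hepCLiP (edgeR adjusted p = 0.00453) and by 1.08 in bilCLiP, where the adjusted p of 0.0317 rose to 0.113 without bilCLiP 3D replicate 2 and to 0.13 without bilCLiP 2D replicate 2. Gmnn, which encodes geminin, changed least of the licensing genes. It was at 23.7, 25.3 and 28.3 CPM in hepCLiP 2D and 14.2, 9.93 and 16.1 CPM in 3D, and at 23.1, 23.6 and 16.6 and 11.6, 16.4 and 12.99 CPM in bilCLiP. It fell by 0.94 ± 0.22 on the log2 scale in hepCLiP (edgeR adjusted p = 0.00733). In bilCLiP its log2 fold change of -0.63 ± 0.22 had an edgeR adjusted p of 0.0501, and it passed at 0.0274 in the fit with the replicate number as a block.

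**Figure D2:**
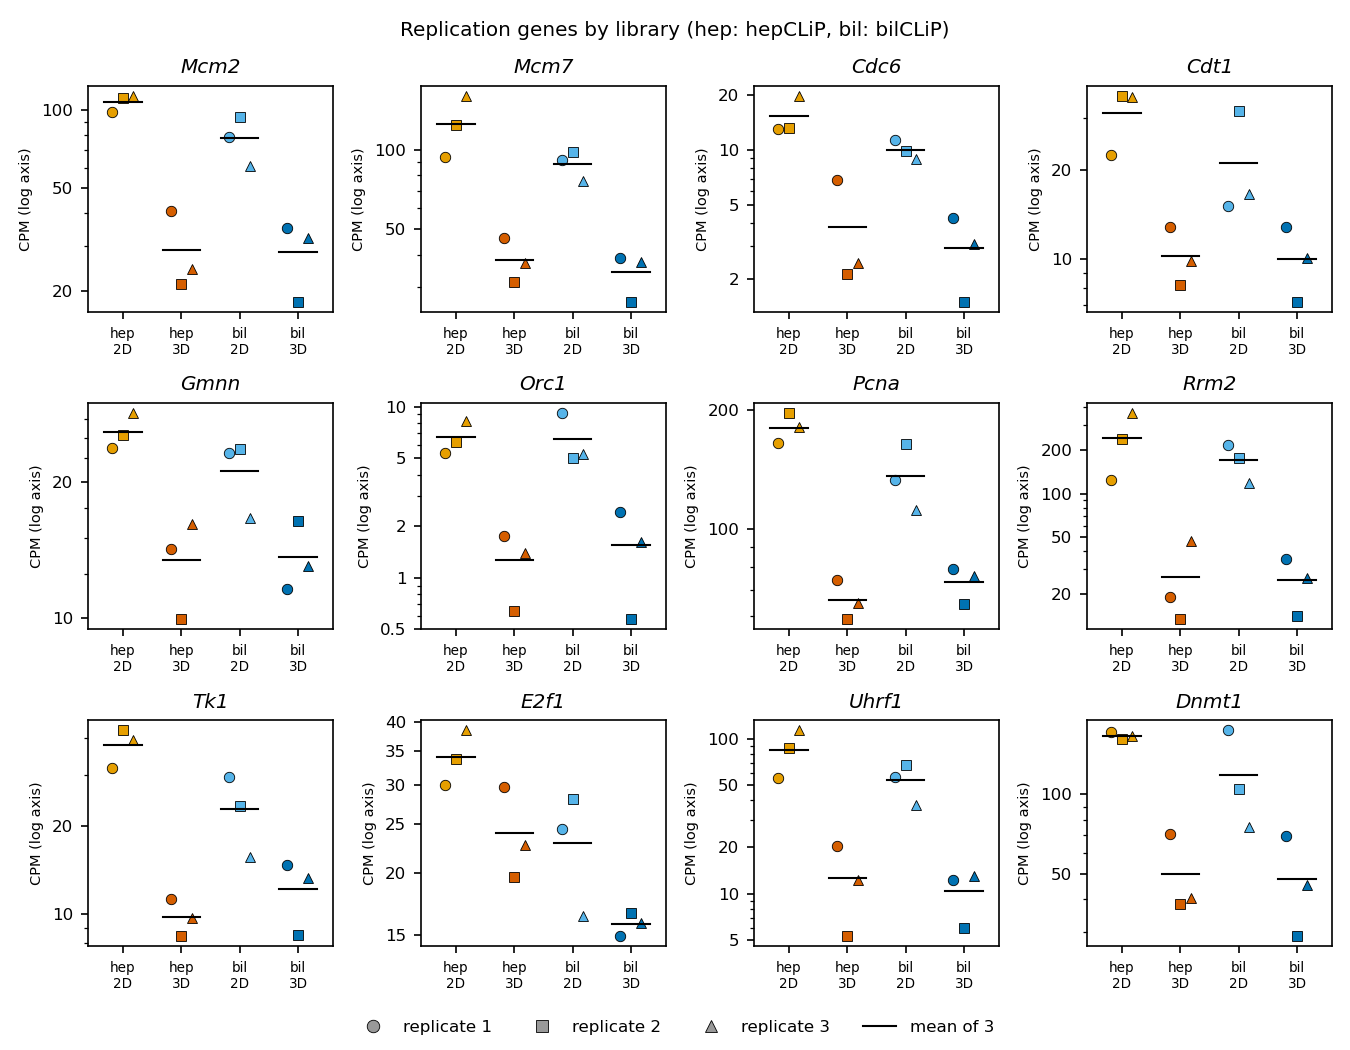
CPM (log axis) of 12 replication genes in each of the 12 libraries, by group (hep, hepCLiP; bil, bilCLiP; 2D or 3D); the marker shape is the replicate number and the bar the mean of 3. The 3D libraries lie below the 2D libraries of the same origin for these genes, apart from E2f1 in bilCLiP, and replicate 2 is the lowest 3D library in most panels, at 0.639 and 0.574 CPM for Orc1.

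In the helicase activation group, 4 of 6 genes fell in each origin. Mcm10, a scaffold that helps convert the ring into a moving helicase, stood at 17.4, 21.4 and 30.1 CPM in hepCLiP 2D and 6.74, 1.63 and 4.86 CPM in 3D, and at 18.4, 19.9 and 11.4 and 6.19, 2.93 and 4.93 CPM in bilCLiP. It was 5.2-fold and 3.54-fold lower in 3D (edgeR adjusted p = 0.00339 and 0.0136). Cdc45, a constant partner of the active helicase, fell by 2.01 ± 0.34 on the log2 scale in hepCLiP and 1.59 ± 0.33 in bilCLiP (edgeR adjusted p = 0.00127 and 0.00482). The 4 subunits of GINS, which form 1 complex in equal parts, differed in how far their RNA moved. Gins1 fell by 1.61 and 1.14 and Gins2 by 1.87 and 1.47 on the log2 scale in hepCLiP and bilCLiP. Gins3 and Gins4 did not pass in either origin. Gins4 was at 22.3, 26.3 and 20.2 CPM in hepCLiP 2D and 20.4, 17.7 and 15.2 CPM in hepCLiP 3D, and at 17.2, 24.6 and 16.5 and 14.7, 15.4 and 15.6 CPM in bilCLiP. The hepCLiP cultures overlapped at 1 library, and the log2 fold changes were -0.37 ± 0.19 and -0.35 ± 0.19 (edgeR adjusted p = 0.154 and 0.185). Gins3 was the scarcest subunit in 2D, at 3.84, 3.001 and 5.295 CPM in hepCLiP 2D, and had log2 fold changes of -0.85 and -0.84 (edgeR adjusted p = 0.0959 and 0.109). For Gins2, 67.3% of the exon bases overlap exons of Gse1 on the other strand. Where reads were counted without strand, the Gins2 count could hold Gse1 reads or lack reads of its own. With the replicate number as a block, the fall of Gins2 in bilCLiP was not called (edgeR adjusted p = 0.0727).

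Of the 5 genes of the sliding clamp and its loader, 4 fell in hepCLiP and 3 in bilCLiP, with medians of -1.38 and -0.69. Pcna encodes the ring that tethers polymerases to DNA. It stood at 165, 196 and 181 CPM in hepCLiP 2D and 74.2, 59.03 and 64.98 CPM in hepCLiP 3D, and at 133, 163 and 111 and 79.04, 64.6 and 75.7 CPM in bilCLiP. The cultures were well apart and the replicates close, and Pcna had the smallest adjusted p of the 43 genes in hepCLiP. It fell 2.73-fold in hepCLiP (log2 SE 0.16, edgeR adjusted p = 0.000168) and 1.86-fold in bilCLiP (log2 SE 0.16, edgeR adjusted p = 0.00215). The table also lists a pseudogene, Pcna-ps2, whose counts were at most 1.76% of those of Pcna in any library. The loader subunits Rfc2, Rfc3, Rfc4 and Rfc5 differed among themselves, and 10.7% to 15.1% of the exon bases of Rfc2, Rfc4 and Rfc5 overlap a gene on the other strand. Rfc5 fell by 1.38 and 1.05 on the log2 scale (edgeR adjusted p = 0.00143 and 0.00703) and Rfc2 by 1.03 and 0.59. Rfc4 fell by 1.47 in hepCLiP and had a log2 fold change of -0.69 in bilCLiP (edgeR adjusted p = 0.0869). Rfc3 had the smallest change of all 43 genes. It stood at 14.3, 13.6 and 16.98 CPM in hepCLiP 2D and 15.7, 9.44 and 10.1 CPM in 3D, with overlap, and its log2 fold changes were -0.35 ± 0.23 and -0.20 ± 0.23 (edgeR adjusted p = 0.262 and 0.552).

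Of the 10 polymerase and strand processing genes, 8 fell in hepCLiP and 5 in bilCLiP. Pole, the catalytic subunit of the leading-strand polymerase epsilon, went from 44.7, 49.9 and 78.6 to 16.5, 4.895 and 7.85 CPM in hepCLiP and from 39.7, 40.3 and 24.5 to 9.62, 4.48 and 8.82 CPM in bilCLiP. The lowest 2D library was above the highest 3D library in both origins. It was 5.93-fold and 4.57-fold lower in 3D (log2 SE 0.46 and 0.45, edgeR adjusted p = 0.00181 and 0.00467). Pole2, the second subunit of that enzyme, was at 5.04, 8.55 and 6.44 CPM in hepCLiP 2D and 3.96, 1.84 and 3.54 CPM in 3D. It fell by 1.10 ± 0.36 on the log2 scale there, a call that was lost on leaving out any of 5 single libraries, with an adjusted p of up to 0.116, and in the fit with the replicate number as a block (adjusted p = 0.0511). Its value in bilCLiP was -0.72 ± 0.35 (edgeR adjusted p = 0.15). Lig1, the ligase that joins Okazaki fragments, fell 3.91-fold in hepCLiP and 2.74-fold in bilCLiP (edgeR adjusted p = 0.003 and 0.0151).

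The primase-polymerase alpha complex lays down the starter strands. Its catalytic subunits Pola1 and Prim1 had log2 fold changes of -1.95 and -1.87 in hepCLiP, and its partner subunits Pola2 and Prim2 had -1.31 and -0.96, all of which passed. In bilCLiP, Prim1 fell by 1.05 and Pola2 by 0.98 on the log2 scale. Pola1, at 21.4, 25.2 and 11.5 CPM in 2D and 12.8, 4.88 and 8.59 CPM in 3D, overlapped between cultures (log2 fold change -1.15 ± 0.45, edgeR adjusted p = 0.0762). Prim2 overlapped as well, at a log2 fold change of -0.59 ± 0.27 (edgeR adjusted p = 0.122). Pold1, the catalytic subunit of the lagging-strand polymerase delta, fell by 1.47 and 1.12. Rpa2, part of the complex that coats single-stranded DNA, passed in neither origin. Its values were 15.9, 18.8 and 24.7 CPM in hepCLiP 2D and 16.8, 9.51 and 10.98 CPM in 3D, where replicate 1 lay within the 2D range, and its log2 fold changes were -0.67 and -0.63 (edgeR adjusted p = 0.0652 and 0.0885). Fen1, the nuclease that trims flaps from Okazaki fragments, was counted at only 6.06, 9.46 and 4.15 CPM in hepCLiP 2D and 4.32, 2.77 and 1.81 CPM in 3D. Its log2 fold changes of -1.14 ± 0.43 and -1.11 ± 0.44 did not pass (edgeR adjusted p = 0.0596 and 0.0763) but did with the replicate number as a block (0.0352 and 0.0461). Exons of genes on the other strand, Tmem258 and Gm10143, cover 84.2% of the Fen1 exon bases. Where reads were counted without strand, the Fen1 count could hold reads of those genes or lack reads of its own.

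All 4 nucleotide supply genes fell in both origins, with medians of -1.99 in hepCLiP and -1.30 in bilCLiP. Rrm2, the subunit of ribonucleotide reductase that limits its activity in S phase, had the largest fall of the 43 genes. It stood at 124, 241 and 363 CPM in hepCLiP 2D and at 19.3, 13.5 and 47.1 CPM in hepCLiP 3D. In bilCLiP the values were 219, 177 and 118 CPM in 2D and 35.4, 14.1 and 26.2 CPM in 3D. The hepCLiP 2D libraries spread widely, yet the lowest of them was above every 3D library. Rrm2 was 9.11-fold lower in hepCLiP 3D (log2 SE 0.56, edgeR adjusted p = 0.0017) and 6.8-fold lower in bilCLiP 3D (log2 SE 0.55, edgeR adjusted p = 0.00392). Rrm1, its partner subunit, fell 4.09-fold and 2.46-fold (edgeR adjusted p = 0.00134 and 0.0138). Tyms, which makes thymidylate, fell by 1.95 ± 0.23 on the log2 scale in hepCLiP and 1.29 ± 0.23 in bilCLiP.

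Tk1, the thymidine salvage kinase of dividing cells, was at 31.5, 42.6 and 39.3 CPM in hepCLiP 2D and 11.3, 8.44 and 9.73 CPM in hepCLiP 3D. In bilCLiP it was at 29.5, 23.5 and 15.7 CPM in 2D and 14.8, 8.496 and 13.3 CPM in 3D. The hepCLiP cultures were far apart, while the lowest bilCLiP 2D library, replicate 3, was just above the highest bilCLiP 3D library. Tk1 fell 3.85-fold in hepCLiP (edgeR adjusted p = 0.000502) and 1.88-fold in bilCLiP (edgeR adjusted p = 0.0241), and the bilCLiP call was lost without replicate 1 or 2 of bilCLiP 2D or replicate 2 of bilCLiP 3D, at adjusted p = 0.0912, 0.0590 and 0.0859.

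Of the 7 chromatin and control genes, 6 fell in each origin. Uhrf1, which brings the maintenance methyltransferase to newly copied DNA, stood at 55.4, 86.4 and 113 CPM in hepCLiP 2D and 20.3, 5.32 and 12.2 CPM in 3D, and at 56.5, 67.9 and 37.5 and 12.3, 5.97 and 13.1 CPM in bilCLiP. Every 3D library was below every 2D library by a wide margin. It was 6.75-fold lower in hepCLiP and 5.17-fold lower in bilCLiP (log2 SE 0.49 and 0.48, edgeR adjusted p = 0.00175 and 0.00432). Dnmt1, that methyltransferase, went from 173, 162 and 167 to 70.7, 38.2 and 40.4 CPM in hepCLiP and from 175, 105 and 75.3 to 69.3, 28.9 and 45.1 CPM in bilCLiP. The hepCLiP 2D libraries were nearly equal, and the bilCLiP 2D libraries ranged over more than their distance to 3D. Dnmt1 fell by 1.75 ± 0.38 and 1.31 ± 0.37 on the log2 scale (edgeR adjusted p = 0.00513 and 0.0223).

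Hells, a chromatin remodeler needed for DNA methylation, fell 5.28-fold and 3.85-fold (edgeR adjusted p = 0.000572 and 0.00182). Both large subunits of the histone chaperone CAF-1 fell, Chaf1a by 1.99 and 1.97 and Chaf1b by 2.35 and 1.54 on the log2 scale, and 52.5% of the Chaf1a exon bases overlap Ubxn6 on the other strand. Brca1, which protects stalled forks, fell by 1.67 and 1.28. E2f1, an activator of S phase transcription, was the exception in this role. It stood at 29.9, 33.8 and 38.5 CPM in hepCLiP 2D and 29.7, 19.6 and 22.7 CPM in hepCLiP 3D, and at 24.5, 28.1 and 16.4 and 14.95, 16.6 and 15.9 CPM in bilCLiP. In hepCLiP replicate 1 of 3D was just under the lowest 2D library, and in bilCLiP replicate 2 of 3D was above replicate 3 of 2D. The log2 fold changes were -0.51 ± 0.21 and -0.54 ± 0.21 (edgeR adjusted p = 0.0898 and 0.0817).

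**Figure D3:**
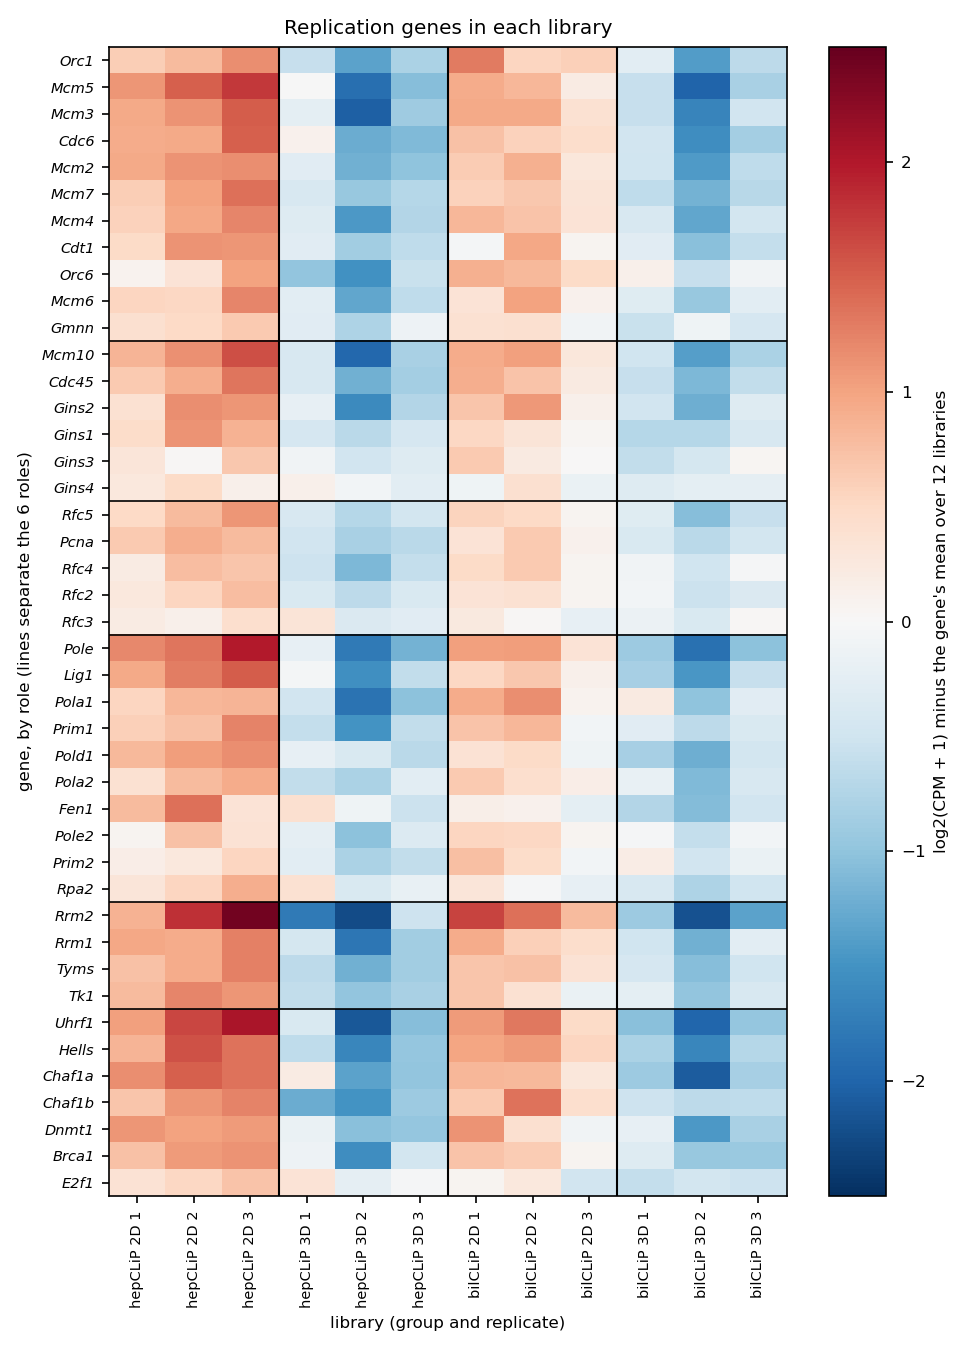
Level of the 43 genes (rows, by role) in the 12 libraries (columns) as log2(CPM + 1) minus the mean of the gene over the libraries; red is above and blue below that mean. Columns of 2D libraries are mostly red and of 3D libraries mostly blue, replicate 2 is the darkest blue column in both 3D groups, and Gins4, Rfc3 and E2f1 are the palest rows.

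The genes also moved together between libraries of 1 group. Summed over the 43, the level was 1858, 2310 and 2754 CPM in hepCLiP 2D and 853, 477 and 672 CPM in hepCLiP 3D. In bilCLiP it was 1893, 1899 and 1291 CPM in 2D and 802, 498 and 744 CPM in 3D. The highest 3D library was below the lowest 2D library in either origin. As a share of all counted reads, the genes took 0.271% ± 0.0496 (SD, n = 3) in hepCLiP 2D and 0.0528% ± 0.015 in hepCLiP 3D, and 0.207% ± 0.0463 and 0.0605% ± 0.0177 in bilCLiP. Within groups, hepCLiP 3D replicate 2 held the lowest value for 40 of the 43 genes and bilCLiP 3D replicate 2 for 39, while over all 14798 genes tested these libraries were the lowest of their group for 29.9% and 36.8%. In 2D the lowest library was hepCLiP replicate 1 for 36 genes and bilCLiP replicate 3 for 41, against 32.7% and 29.8% of all genes tested. Without both 3D libraries numbered 2, a check chosen after these values were seen, 35 genes fell in hepCLiP and 23 in bilCLiP, of which 22 were among the 32. The share of all genes tested called lower in that fit is not given here, so a general loss of calls cannot be told apart.

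Levels of different genes can be compared only per length, here as CPM per kilobase of exon. That length joins the exons of all annotated transcripts of a gene and can exceed that of the RNA present, so the order is approximate. In hepCLiP 2D the most abundant of the 43 were Rrm2, at 87.6 ± 43.04 CPM per kilobase (SD, n = 3), and Pcna, at 75.2 ± 6.53, which did not differ beyond their spread, and Mcm7 followed at 28.5 ± 7.47. The order in bilCLiP 2D began likewise, with Rrm2 at 61.8 ± 18.3 and Pcna at 56.6 ± 10.9 CPM per kilobase. In 3D, Pcna led in both origins, at 27.5 ± 3.19 in hepCLiP and 30.5 ± 3.15 in bilCLiP. Gins4 came next in 3D, at 13.2 ± 1.94 and 11.3 ± 0.363 CPM per kilobase, and Rrm2 had dropped to 9.61 ± 6.49 in hepCLiP 3D. The least abundant gene in both 3D groups was Orc1, at 0.363 and 0.444 CPM per kilobase.

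Partners in 1 complex or pathway did not all keep their ratio. In 10 pairs, chosen after the values were seen and so given without a test, the ratio of counts within a library was compared between cultures. In each pair the gene named first had the larger mean fall over both origins, so a lower ratio in 3D is partly built in by the choice. Rrm2 to Rrm1 was 1.08, 2.16 and 2.55 in hepCLiP 2D and 0.453, 0.848 and 1.5 in 3D, and 1.97, 1.99 and 1.48 and 0.868, 0.569 and 0.542 in bilCLiP. The hepCLiP cultures overlapped and the bilCLiP cultures did not. Pole to Pole2 was 8.87, 5.83 and 12.2 in hepCLiP 2D and 4.17, 2.65 and 2.22 in 3D, and 5.42, 5.52 and 4.89 and 2.06, 1.59 and 1.97 in bilCLiP, without overlap. Every 3D library thus had the lower ratio in each origin. For 5 pairs the 3D ratios lay below all 2D ratios in both origins: Pole to Pole2, Prim1 to Prim2, Gins2 to Gins4, Uhrf1 to Dnmt1 and Orc1 to Orc6. How often other pairs of genes do so was not counted. Gins2 shares exon bases with Gse1, and Orc1 was at only 0.639 and 0.574 CPM in the hepCLiP and bilCLiP 3D libraries numbered 2. For Uhrf1 to Dnmt1 the mean log2 ratio shifted by -1.09 in hepCLiP and -1.10 in bilCLiP, and for Gins2 to Gins4 by -1.63 and -1.16. Cdt1 to its inhibitor Gmnn was 0.945, 1.399 and 1.25 in hepCLiP 2D and 0.902, 0.821 and 0.612 in 3D, and overlapped in bilCLiP. Pola1 to Pola2 and Chaf1a to Chaf1b overlapped between cultures in both origins, with the shift for Chaf1a to Chaf1b at 0.19 in hepCLiP and -0.61 in bilCLiP.

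**Figure D4:**
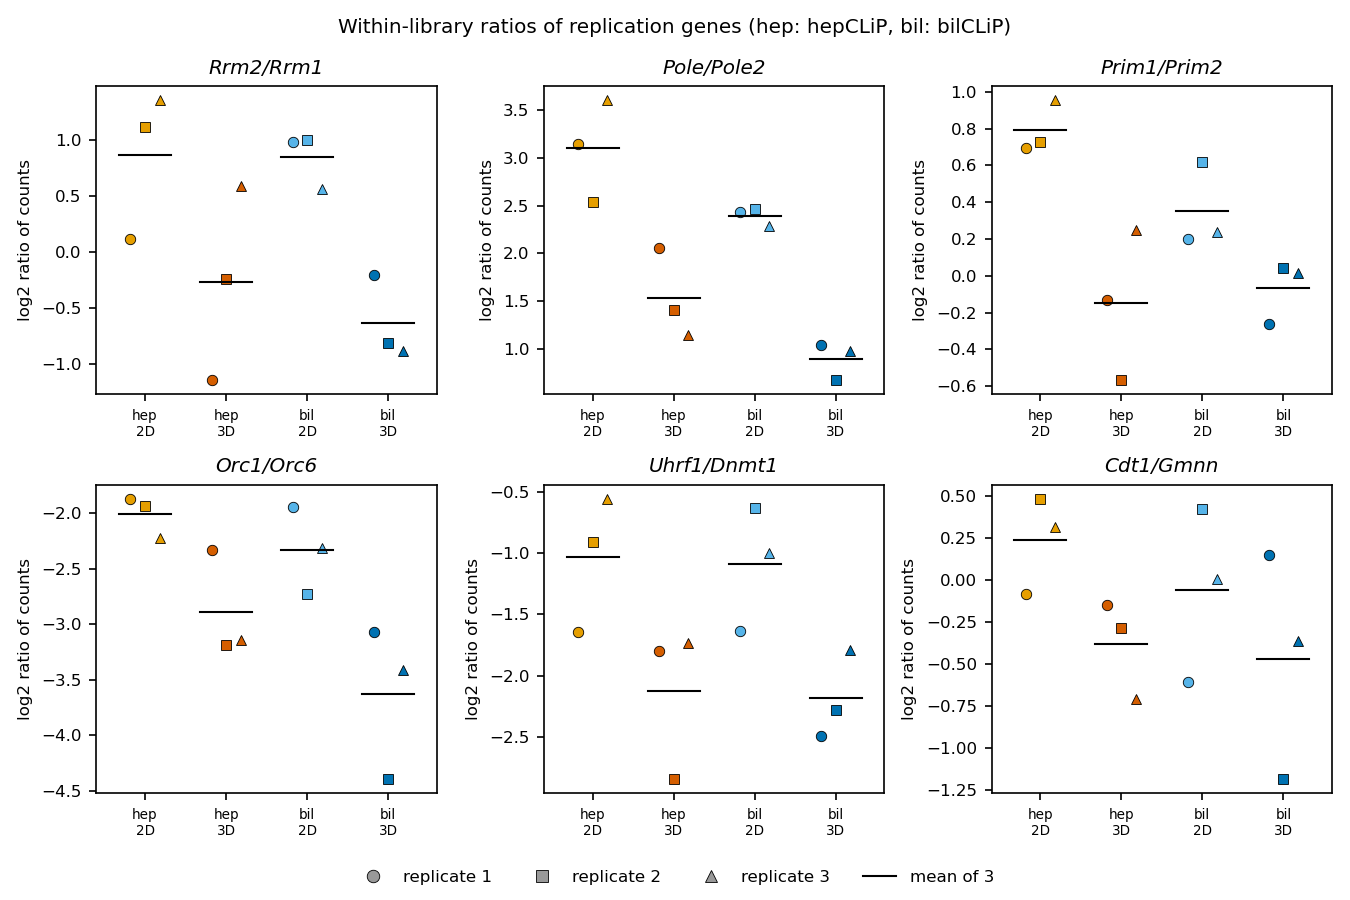
Log2 ratio of counts of 2 replication genes within each library (y axis) for 6 of the 10 pairs, by group (hep, hepCLiP; bil, bilCLiP); the marker shape is the replicate number and the bar the mean of 3. The ratio of Pole to Pole2 is lower in every 3D library than in every 2D library of the same origin, and that of Cdt1 to Gmnn overlaps between cultures in bilCLiP.

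Between origins, no difference passed for any of the 43 genes. In 2D, 0 of the 43 were called between bilCLiP and hepCLiP by edgeR, where 0.135% of all genes tested were called, and 0 by DESeq2 or by limma. At an unadjusted p under 0.05 there were 9 of the 43, a share of 20.9% against 14.5% of all genes tested. The log2 difference of bilCLiP minus hepCLiP in 2D was negative for 40 of 43, against 54.2% of all genes tested, with a median of -0.43. The lowest unadjusted p was that of Pold1, at a log2 difference of -0.77 (95% interval -1.31 to -0.24, edgeR adjusted p = 0.212). Tk1 was next, at -0.72 (95% interval -1.33 to -0.12, edgeR adjusted p = 0.261). In 3D, 0 of 43 were called by edgeR, DESeq2 or limma, beside 0.101% of all genes tested by edgeR, 4 had an unadjusted p under 0.05, beside 16.6% of all genes tested, and the median difference was 0.02. The difference in 3D was negative for 21 of 43 and for 49.8% of all genes tested. Those 4 were Orc6 and Chaf1b, with log2 differences of 0.88 and 0.64, and Fen1 and E2f1, with -1.05 and -0.60.

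No difference between the origins in the change with culture was called for any of the 43 genes, which does not show that the changes were equal. For this difference of the culture effects, 0 of 43 passed by edgeR, DESeq2 or limma, where edgeR called 0 of 14798 genes. At an unadjusted p under 0.05 there were 2, beside 3.6% of all genes tested. These were Tk1, whose fall was smaller in bilCLiP by 1.03 on the log2 scale (95% interval 0.18 to 1.89), and Pcna, by 0.56 (95% interval 0.04 to 1.07), with an edgeR adjusted p of 1 for each. The estimate was positive, meaning a smaller fall in bilCLiP, for 42 of 43 genes, with a median of 0.42 against 0.06 over all genes tested. It was negative for 1 gene, E2f1, and for 43.6% of all genes tested. Among RosaYFP libraries alone, with 1 hepCLiP library per culture, the median was 1.04, and that of the origin difference in 3D was 0.62. The 42 genes share the same 12 libraries, among them the 2D libraries in which the bilCLiP level was the lower for 40 genes.

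Other genes of DNA replication and the cell cycle were counted from lists made by function. Of 28 further fork genes, 15 fell and 1 rose in hepCLiP and 10 fell and 1 rose in bilCLiP, with medians of -0.89 and -0.60. Chtf18, of an alternative clamp loader, fell by 2.19 ± 0.48 and 1.90 ± 0.47 on the log2 scale in hepCLiP and bilCLiP (edgeR adjusted p = 0.00517 and 0.0120). Ticrr, which helps fire origins, fell by 2.83 ± 0.79 in hepCLiP and was at -1.87 ± 0.76 in bilCLiP (edgeR adjusted p = 0.0178 and 0.0876), and its hepCLiP call was lost without replicate 3 of hepCLiP 2D or 3D (0.0518 and 0.06). Pole4, a small histone-fold subunit of polymerase epsilon, rose. It stood at 31.1, 34.9 and 27.6 CPM in hepCLiP 2D and 69.7, 76.2 and 56.2 in 3D, and at 22.4, 22.8 and 17.4 and at 48.1, 59.4 and 44.6 in bilCLiP. The log2 fold changes were 1.11 ± 0.17 and 1.28 ± 0.17 (edgeR adjusted p = 0.000806 and 0.000481), opposite in sign to those of Pole and Pole2 of the same enzyme.

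Among 15 further nucleotide genes, 7 fell and 1 rose in hepCLiP and 6 fell and 2 rose in bilCLiP. Dctd, the deaminase that feeds thymidylate synthesis, fell furthest, from 16.1, 20.1 and 21.5 CPM in hepCLiP 2D to 1.10, 1.77 and 1.74 in 3D, with log2 fold changes of -3.64 ± 0.37 and -2.94 ± 0.36 in the 2 origins (edgeR adjusted p = 0.000121 and 0.000263). Dck, a salvage kinase, fell by 1.55 and 1.27 on the log2 scale. Shmt1, of folate metabolism, rose by 0.99 ± 0.29 in bilCLiP (edgeR adjusted p = 0.0267) and was at 0.60 ± 0.29 in hepCLiP (edgeR adjusted p = 0.131, and 0.00537 with the replicate number as a block). The bilCLiP call was lost under library totals alone (edgeR adjusted p = 0.162) and without bilCLiP 3D replicate 2 (0.117), 2D replicate 1 (0.0758) or 2D replicate 3 (0.0864).

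Among 12 genes of the E2F and pocket protein families, 6 fell and 1 rose in hepCLiP and 5 fell and 1 rose in bilCLiP. The repressors E2f7 and E2f8, themselves made in S phase, fell by 3.85 ± 0.72 and 2.78 ± 0.55 on the log2 scale in hepCLiP and by 2.96 ± 0.70 and 2.27 ± 0.54 in bilCLiP; 11.2% of the E2f8 exon bases overlap Gm2788 on the other strand. Rbl2, which encodes the pocket protein p130 of resting cells, rose from 22.3, 23.0 and 19.0 to 39.8, 51.5 and 43.6 CPM in hepCLiP and from 19.7, 19.6 and 22.8 to 39.0, 43.7 and 35.3 CPM in bilCLiP (log2 fold changes 1.07 ± 0.15 and 0.93 ± 0.14, edgeR adjusted p = 0.000434 and 0.00106). Exons of Aktip and Gm45464 on the other strand cover 1585 of the 7558 Rbl2 exon bases. Where reads were counted without strand, the Rbl2 count could hold reads of those genes or lack reads of its own. Of 17 genes of the S phase checkpoint, repair and histone chaperones, 13 fell in hepCLiP and 10 in bilCLiP and 0 rose.

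All 20 mitosis genes fell in both origins, with medians of -2.76 in hepCLiP and -2.56 in bilCLiP, beside the -1.74 and -1.15 of the 43 replication genes. The checkpoint kinase Bub1 fell by 3.26 ± 0.56 and 3.24 ± 0.56 on the log2 scale and Kif23, a motor of cytokinesis, by 3.72 ± 0.56 and 3.10 ± 0.54. As a mean of log2(CPM + 1), the mitosis list minus the replication genes was 0.58 to 0.90 in the 2D libraries of both origins. In 3D this difference was -0.89 to -0.16, and the cultures did not overlap. These means are not scaled for gene length, so only the shift between cultures can be read, not which list was higher. Both lists were lowest in the 3D libraries numbered 2.

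**Figure D5:**
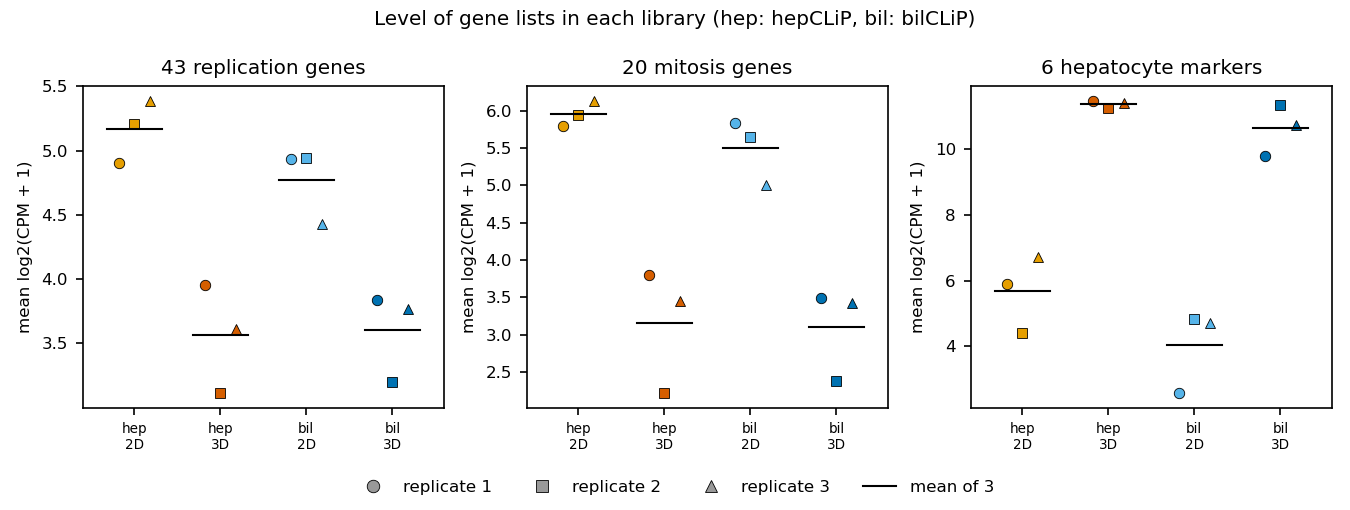
Mean log2(CPM + 1) of the 43 replication genes, of 20 mitosis genes and of 6 hepatocyte markers (y axes differ) in each library, by group (hep, hepCLiP; bil, bilCLiP); the marker shape is the replicate number and the bar the mean of 3. Replication and mitosis genes are lower and hepatocyte markers higher in every 3D library than in any 2D library, and replicate 2 is the lowest 3D library of each origin in the first 2 panels.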

How the data were processed

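RNA was sequenced from 12 cultures, 3 in each of 4 groups. Listed in the submitters' processing notes are the GRCm39 build, the aligner STAR (2.7.10b), featureCounts (2.0.1) and DESeq2. The authors deposited a table of raw counts per gene and a table of normalized signal, whose values are those counts divided by 1 constant per library (within a relative tolerance of 0.001). For the counting, annotation and strand setting were not given in the sources used here.

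Counts were tested with edgeR 4.0.16 in R 4.3.3 (TMM factors, filterByExpr at a minimum count of 10, robust quasi-likelihood fit of 4 group means, Benjamini-Hochberg adjustment over 14798 genes, threshold 0.05). The procedure was also run on simulated counts with far fewer changed genes than were called here, equally many up and down. That run does not test the scaling under shifts as wide as those seen here. CPM are counts scaled to the TMM effective library size, on the usual per-megaread scale. CPM per kilobase uses exon lengths of GENCODE M21 (GRCm38), so it is approximate for counts made on GRCm39. DESeq2 1.42.0, limma 3.58.1 on the deposited normalized signal (log2 scale, pseudocount 1), other scalings and filters, and leaving out libraries were alternatives. Totals of 16142365 to 21253382 counts limit precision for genes of a few CPM.

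The genes named with full values were 12 chosen for their role, in each of 6 roles the 2 members with the largest and the 1 with the smallest mean change over both origins, members not called in an origin, and in each of 5 further lists the 2 genes with the largest mean change and those called higher in 3D. Others are named briefly to complete a complex. Members and lists were chosen with earlier results of these data known. Same-numbered 2D and 3D libraries of 1 origin deviated together from their group means. The correlation across genes was 0.497 to 0.508 in hepCLiP and 0.429 to 0.523 in bilCLiP. The fit with the replicate number as a block took these numbers to pair cultures within an origin. The main fit left this pairing out, so its SE and p-values treat the libraries as independent. Promoters come from RefSeq (GRCm38.p6). Values of some genes of the further lists are not reported here.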

Additional observations from a re-analysis of the deposited data

How the results depend on the processing

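In both culture comparisons all members tested had a negative fold change under every alternative run. Without 1 library, 35 to 39 members fell in hepCLiP (median -1.96 to -1.52, 4151 to 5203 genes called in all) and 17 to 34 in bilCLiP (median -1.40 to -1.05, 3115 to 4554 genes). DESeq2 called 38 and 35 members lower, and limma 37 and 33. With the replicate number as a block the counts were 37 and 31, and no calls changed other than those given beside their genes. Scaled by library totals alone, 7915 and 6763 genes were called, the members' medians were -2.31 and -1.62, and their summed level in bilCLiP 2D was 2074.4 CPM. With RosaYFP libraries only, 815 genes were called in hepCLiP, 16 members fell, and the median was -2.23. The medians between origins in 3D and for the difference of the culture effects were then 0.62 and 1.04, and 5 genes were called between origins in 2D and 5 in 3D.

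Genes called between origins, among which no member appeared under any tool, varied widely from the 20 in 2D and 15 in 3D: 559 and 652 by DESeq2, 38 and 26 by limma, 5 and 3 with only those 2 groups, 62 and 44 with the replicate number as a block (across origins the numbers did not pair the libraries), 8 and 3 without both 3D libraries numbered 2, and 9 to 31 and 3 to 251 without 1 library. For the difference of the culture effects the count was 16 by DESeq2 and 0 to 3 without 1 library. The cause of these moves was not tested. In the 150 bases before the start, 22.9% of members held the E2F letters.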
